A study of Mus musculus with 2 samples.

Results

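The transcripts of 7 genes that build caveolae and their relatives in the endothelial wall were followed through mouse lung cells: the caveolins Cav1 and Cav2, the cavins Cavin1, Cavin2 and Cavin3, the neck protein gene Ehd2, and Plvap. They were taken by symbol from the 31053 genes of the count matrices, in which 15932 genes and all 7 of these had at least 1 unique molecular identifier (UMI, a captured transcript) in a retained cell. Levels were read per library and per cell class, with endothelial cells that carried at least 1 UMI of Car4 kept apart from the other endothelial cells.

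The 2 single-cell libraries came from the lungs of NG2tdT mice, which carry the tamoxifen-inducible NG2-CreERTM driver and the Ai14 tdTomato reporter, so that cells expressing NG2 (gene Cspg4, a proteoglycan of pericytes and some smooth muscle cells) turn red after tamoxifen. All mice received tamoxifen at 2 mg per 30 g of body weight and rested for 7 days. The Hypoxia library was then made from mice kept at 10% oxygen for 21 days, and the Normoxia library from mice labelled as untreated. Both were described as sorted tdTomato-positive cells, whereas the study describes a whole-lung preparation of wild-type animals depleted of leukocytes and epithelium, and male mice in its hypoxia experiments. There was 1 library per group. The labels speak of 3 replicates without tying them to libraries, and it is not stated whether animals were pooled. The study names another deposit for its own mouse data, so its methods may not describe these libraries. No test between groups could therefore be made, each difference is between these 2 libraries, and all intervals are 95% intervals of counting error only.

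Caveolae are flask-shaped pits of the plasma membrane, and lung capillary endothelium is among the tissues richest in them. Caveolins are the membrane-embedded proteins of the pit, with caveolin-1 required to form it outside muscle and caveolin-2 associating with caveolin-1. Cavins are cytosolic proteins that coat the pit: cavin-1 is required for its formation, cavin-2 helps to shape it and cavin-3 is an accessory subunit. EHD2 is an ATPase at the neck that holds the pit at the surface. PLVAP forms the thin diaphragms that span the mouths of caveolae and fenestrae in endothelium, and in lung it is a marker of the general capillary cells as opposed to the Car4-rich capillary cells.

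The filters retained 293 of 373 Normoxia barcodes (78.6%) and 453 of 613 Hypoxia barcodes (73.9%), with medians of 3135 and 2818 UMIs per cell. 2 barcodes occurred in both libraries. Joint clustering, made without the 7 genes, gave 15 clusters, of which 6 were endothelial cell-like by their markers. They held 117 Normoxia and 218 Hypoxia cells, so the libraries were not made up of pericytes alone. Of these, 46 Normoxia and 76 Hypoxia cells were Car4-positive. The endothelial clusters were cluster 10 (led by Plvap, Hilpda and Npr3, 42 Normoxia and 34 Hypoxia cells), cluster 3 (Cdk19, Ntrk2 and Wfdc1, 16 and 103 cells), cluster 2 (Aplnr and Adrb1, 17 and 32 cells), cluster 11 (Car4, Ednrb and Apln, 19 and 20 cells), cluster 9 (Scgb1a1 and Vwf, 19 and 23 cells) and cluster 14 (the lymphatic genes Ccl21a, Mmrn1 and Flt4, 4 and 6 cells). Clusters 2, 3 and 10 passed the marker threshold for Aplnr, a general capillary marker, and are called the capillary clusters below. This grouping was chosen after values had been seen. Plvap was the leading gene of cluster 10 although it took no part in the clustering.

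Plvap was found almost entirely in endothelial cells. Endothelial cells carried 98.2% of the 451 Plvap UMIs of the Normoxia library and 99.6% of the 223 of the Hypoxia library. Caveolin transcripts were nearly as concentrated, with 85.5% and 96.6% of Cav1 and 94.3% and 98.3% of Cav2 UMIs in endothelial cells. Cavin2 followed with 90.4% and 97.2%. The endothelial share was lower for Cavin1 (54.4% and 91.5%), for Ehd2 (47.7% and 91.8%) and for Cavin3 (26.4% and 75.4%). These shares also depend on how many cells of each class a library held.

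The promoters of Cav2, Cav1, Cavin1 and Cavin2 are shown because the Hypoxia to Normoxia ratios of these genes in the capillary clusters, given below, had opposite signs for the neighbours Cav2 and Cav1 and for Cavin2 and Cavin1. On GRCm38, Cav2 spans positions 17281185 to 17289115 and Cav1 positions 17306335 to 17341452 of chromosome 6, both on the plus strand and 17219 bases apart. Cavin1 lies on the minus strand of chromosome 11 (100956733 to 100970887) and Cavin2 on the plus strand of chromosome 1 (51289126 to 51302960). Genes on the opposite strand overlap Cav1 and Cav2 (Gm15581), Cavin2 (9330175M20Rik), Cavin3 (Gm45667) and Plvap (Gtpbp3), and whether counting used strand is not given in the sources used here. Promoter entries of RefSeq on GRCm38.p6 matched 5 of the 7 genes, and the 250 bases before the RefSeq start site are printed 5′ to 3′. A RefSeq start site can differ from the end of the span given above, and the Cavin1 window lies within the Cavin1 span. Capitals mark, on either strand, the core of the hypoxia response element (ACGTG or GCGTG) and the GC box GGGCGG, the latter a binding sequence of Sp factors.
Cav2, chr6:17280935-17281184: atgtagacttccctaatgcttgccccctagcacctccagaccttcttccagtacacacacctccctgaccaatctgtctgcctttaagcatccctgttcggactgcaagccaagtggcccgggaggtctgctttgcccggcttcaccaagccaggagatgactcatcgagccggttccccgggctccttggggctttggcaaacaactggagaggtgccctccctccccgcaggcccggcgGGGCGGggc
Cav1, chr6:17306085-17306334: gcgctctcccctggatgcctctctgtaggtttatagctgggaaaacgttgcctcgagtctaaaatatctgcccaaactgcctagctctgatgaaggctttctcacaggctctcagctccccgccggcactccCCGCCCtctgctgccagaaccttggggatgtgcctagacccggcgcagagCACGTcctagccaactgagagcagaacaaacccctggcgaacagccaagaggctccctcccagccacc
Cavin1, chr11:100970618-100970867: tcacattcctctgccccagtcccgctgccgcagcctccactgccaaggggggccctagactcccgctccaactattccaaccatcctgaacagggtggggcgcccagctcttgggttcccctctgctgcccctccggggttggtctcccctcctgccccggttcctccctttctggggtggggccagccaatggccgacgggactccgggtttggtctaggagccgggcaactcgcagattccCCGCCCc
Cavin2, chr1:51288876-51289125: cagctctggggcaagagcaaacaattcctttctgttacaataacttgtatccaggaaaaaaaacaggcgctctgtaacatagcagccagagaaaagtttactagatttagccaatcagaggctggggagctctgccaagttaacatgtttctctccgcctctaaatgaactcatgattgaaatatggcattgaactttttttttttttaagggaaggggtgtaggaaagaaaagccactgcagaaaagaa
Cav1 and Cavin1 have a second entry each, from another start site, and the windows printed are the first. A GC box was present in the printed windows of Cav2, Cav1 and Cavin1 and in 32.7% of all 32851 promoter windows. ACGTG occurred only in the window of Cav1 among the 4 printed and in 16.6% of all windows, and GCGTG in none of the 4 and in 28.2% of all. The second Cav1 window (chr6:17307390-17307639) held none of the 3 motifs, and the second Cavin1 window had the same counts as the first. The window of Ehd2, which is not printed, held 2 GCGTG and 1 GC box. The window of Cavin2 had a lower G and C content, with 40.4% G or C against 62.0% for Cav2, 59.6% for Cav1 and 67.6% for Cavin1, and with 2 CpG sites against 10, 10 and 12. The median of all windows was 52.4%. A match of letters is a description and not a bound site.

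In T or NK and B cells, which served as the background from free RNA, their levels were between 0 and 62.9 CPM (the UMIs of the gene scaled to the total UMIs of the same cells) in Normoxia and between 0 and 20.3 CPM in Hypoxia. All 13 Cavin2 UMIs behind the highest of these values came from 1 cell. The median depth of these lymphocytes was 3889 UMIs in Normoxia and 2475 in Hypoxia, against 2790 and 3302 in Car4-positive and 2584 and 2664 in other endothelial cells. Car4 itself was at 518 CPM (31 UMIs) in Normoxia and 15.2 CPM (4 UMIs) in Hypoxia T or NK cells. B cells had 0 Car4 UMIs. In Car4-positive endothelial cells Car4 was at 3146 and 1791 CPM, a log2 ratio of −0.81 (−0.99 to −0.63). Cluster 10 had 634 and 636 CPM of Car4, and cluster 3 had 216 and 163 CPM. Whether 1 Car4 UMI picks out like cells in both libraries was not tested.

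**Figure D1:**
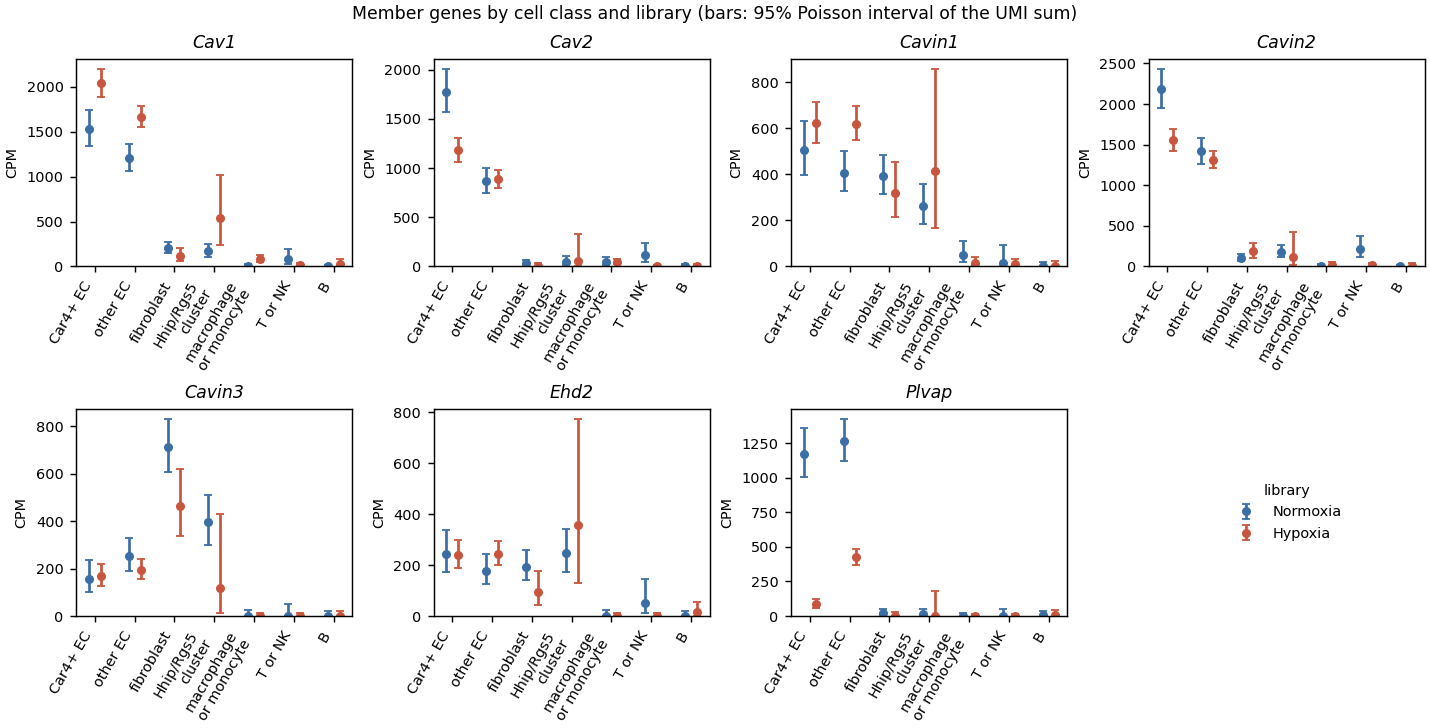
Level of each of the 7 genes in CPM (vertical axis, linear, each panel with its own scale) by cell class (horizontal axis; EC, endothelial cells; the Hhip/Rgs5 cluster is an unnamed cluster with 45 Normoxia and 6 Hypoxia cells). Points are the 2 libraries (blue, Normoxia; red, Hypoxia) and bars are 95% Poisson intervals of the UMI sums; Cav1, Cav2, Cavin2 and Plvap are highest in the endothelial cells, whereas Cavin3 is highest in fibroblasts.

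Cavin3 was the member least tied to endothelium. Fibroblast-like cells carried it at 713 CPM (606 to 833) in the Normoxia library and at 463 CPM (337 to 619) in the Hypoxia library. An unnamed cluster led by Hhip, Rgs5 and Acta2, which had fibroblast and pericyte markers, reached 395 CPM (298 to 512) in Normoxia and 119 CPM (14.4 to 429) in Hypoxia, the latter from 2 UMIs in 6 cells. Other endothelial cells had 253 CPM (190 to 330) and 195 CPM (156 to 240), and Car4-positive cells 157 CPM (99.3 to 235) and 169 CPM (127 to 220). Fibroblasts thus exceeded all endothelial cells by 1.74 (1.34 to 2.15) in Normoxia and by 1.33 (0.81 to 1.82) in Hypoxia on the log2 scale. No Cavin3 UMI was found in T or NK and B cells or in macrophages or monocytes. Cavin3 lies on the minus strand of chromosome 7 (105480083 to 105482300).

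Cavin1 and Ehd2, the general coat and neck genes, were also measured in fibroblasts and in the Hhip and Rgs5 cluster. Cavin1 reached 392 CPM (314 to 484) in Normoxia and 319 CPM (217 to 452) in Hypoxia fibroblasts, and 261 CPM (184 to 359) and 416 CPM (167 to 857) in the Hhip and Rgs5 cluster. Relative to all endothelial cells of its library, Cavin1 in fibroblasts stood at −0.19 (−0.58 to 0.20) in Normoxia, an interval that includes 0, and at −0.96 (−1.53 to −0.43) in Hypoxia on the log2 scale. In the Hhip and Rgs5 cluster the Normoxia ratio was −0.78 (−1.33 to −0.25). Ehd2, on the minus strand of chromosome 7 (15946958 to 15967567), was measured in fibroblasts at 194 CPM (140 to 261) and 92.5 CPM (42.3 to 176), with log2 ratios to endothelial cells of −0.08 (−0.66 to 0.48) and −1.39 (−2.54 to −0.44). In the Hhip and Rgs5 cluster Ehd2 had 247 CPM (172 to 343) and 357 CPM (131 to 776), and in Normoxia these intervals overlapped those of both endothelial groups.

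Cav1, Cav2, Cavin2 and Plvap were lower outside endothelium, though not absent from stromal cells. Cav1 in fibroblasts was at 207 CPM (152 to 277) in Normoxia and 113 CPM (56.4 to 202) in Hypoxia, with log2 ratios to endothelial cells of −2.69 (−3.16 to −2.26) and −4.01 (−5.02 to −3.17). The Hhip and Rgs5 cluster had 169 CPM of Cav1 (108 to 252) in Normoxia and 535 CPM (245 to 1015) in Hypoxia, the latter from 9 UMIs in 6 cells. Cavin2 was measured in fibroblasts at 99.2 CPM (62.2 to 150.2) and 185 CPM (110 to 292), and in the Hhip and Rgs5 cluster at 183 CPM (120 to 268) and 119 CPM (14.4 to 429). In the Normoxia fibroblasts there were 7 UMIs of Cav2 (31.6 CPM) and 5 of Plvap, and in the Hypoxia fibroblasts 0 of either gene. The Normoxia fibroblast levels of Cavin2 and Cav2 were below those of the T or NK cells of that library. These were 217 CPM for Cavin2, from a single cell, and 117 CPM for Cav2. In macrophages or monocytes Cav1 was at 80.0 CPM (49.5 to 122) in Hypoxia, with 14 of its 21 UMIs in a single cell, and at 0 UMIs in Normoxia.

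Plvap showed the widest contrast between the libraries. In Car4-positive endothelial cells it was at 1171 CPM (1003 to 1360, 172 UMIs) in Normoxia and 86.0 CPM (57.1 to 124, 28 UMIs) in Hypoxia, which gave a Hypoxia to Normoxia difference (log2) of −3.77 (−4.40 to −3.19). In other endothelial cells it was at 1268 CPM (1122 to 1428, 271 UMIs) and 424 CPM (367 to 488, 194 UMIs), or on the log2 scale a Hypoxia to Normoxia ratio of −1.58 (−1.85 to −1.31). Hypoxia levels were below Normoxia levels in both groups of cells and the intervals of the levels did not overlap. Among the 4064 genes with at least 20 UMIs in the Car4-positive cells, 0 had a lower ratio than Plvap, and among 5115 genes in the other endothelial cells 2.44% did. Plvap lies on the minus strand of chromosome 8 (71497765 to 71511752).

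The number of cells with Plvap moved in the same direction once each cell was thinned to 1000 UMIs. Among Car4-positive cells, 22 of 46 in Normoxia (47.8%, 32.9 to 63.1%) and 4 of 75 in Hypoxia (5.33%, 1.47 to 13.1%) had a Plvap UMI. Without thinning these were 25 of 46 and 20 of 76 cells. The thinned shares of the other endothelial cells with a UMI were 42.4% (30.3 to 55.2%) and 31.1% (23.4 to 39.6%), whose intervals overlap. None of the 44 Normoxia and 129 Hypoxia lymphocytes that entered the thinning had a Plvap UMI.

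Endothelial clusters differed in Plvap, and the Car4 and Ednrb cluster had none. In cluster 11 there were 0 Plvap UMIs in 19 Normoxia and 20 Hypoxia cells, which allows at most 50.5 CPM and 36.4 CPM (3 counts per library) and a share of up to 15.8% and 15% of cells with a UMI. The capillary clusters had 1923 CPM in Normoxia and 265 CPM in Hypoxia. The Car4-positive cells with Plvap were cells of the other clusters. In Normoxia 41.3% of the Car4-positive cells belonged to cluster 11, 45.7% to cluster 10 and 8.70% to cluster 3, while in Hypoxia these values were 26.3%, 23.7% and 40.8%.

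Within the capillary clusters Plvap was lower in Hypoxia in each cluster. Cluster 10 had 2306 CPM (2044 to 2593) in Normoxia and 385 CPM (282 to 514) in Hypoxia, hence a ratio (log2, Hypoxia to Normoxia) of −2.58 (−3.07 to −2.13). After thinning 78.0% (62.4 to 89.4%) and 14.7% (4.95 to 31.1%) of its cells retained a Plvap UMI. Cluster 3 had 1606 CPM (1245 to 2040) and 217 CPM (170 to 273), which gave a Hypoxia to Normoxia difference (log2) of −2.89 (−3.39 to −2.39), although only 16 Normoxia cells stood against 103 Hypoxia cells. Cluster 2 had 860 CPM (567 to 1251) and 289 CPM (179 to 442), or on the log2 scale a Hypoxia to Normoxia ratio of −1.57 (−2.47 to −0.69). Cluster 2 also carried airway transcripts in Normoxia, where Scgb1a1, the secretory product of club cells, took 5.69% of its UMIs against 0.0248% in Hypoxia, and the 7 airway markers summed to 57630 and 262 CPM. In clusters 3 and 10 Scgb1a1 took at most 0.0172% in either library. The part of these transcripts in the cluster 2 values was not tested. Over the 3 clusters together, 75 Normoxia and 169 Hypoxia cells, the log2 ratio was −2.86 (−3.15 to −2.58).

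In the remaining clusters the interval of the ratio included 0 or there were no UMIs. Cluster 9 had 688 CPM (528 to 882) in Normoxia and 573 CPM (452 to 716) in Hypoxia, hence a ratio (log2, Hypoxia to Normoxia) of −0.26 (−0.77 to 0.24), and 90.3% of its Normoxia Plvap UMIs came from 3 of 19 cells. This cluster also carried epithelial transcripts: Scgb1a1 took 5.63% of its UMIs in Normoxia and 10.9% in Hypoxia, and the 12 endothelial markers summed to 3984 and 9923 CPM against 20429 and 15412 CPM in the capillary clusters. The 7 alveolar type 2 markers summed to 24326 CPM in its Normoxia cells and to 3928 CPM in its Hypoxia cells, and the part of these transcripts in the Plvap values was not tested. Without cluster 9 the log2 ratio of Plvap in other endothelial cells was −2.27. The lymphatic cluster 14 had 7 Plvap UMIs in 4 Normoxia cells and 5 in 6 Hypoxia cells.

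**Figure D2:**
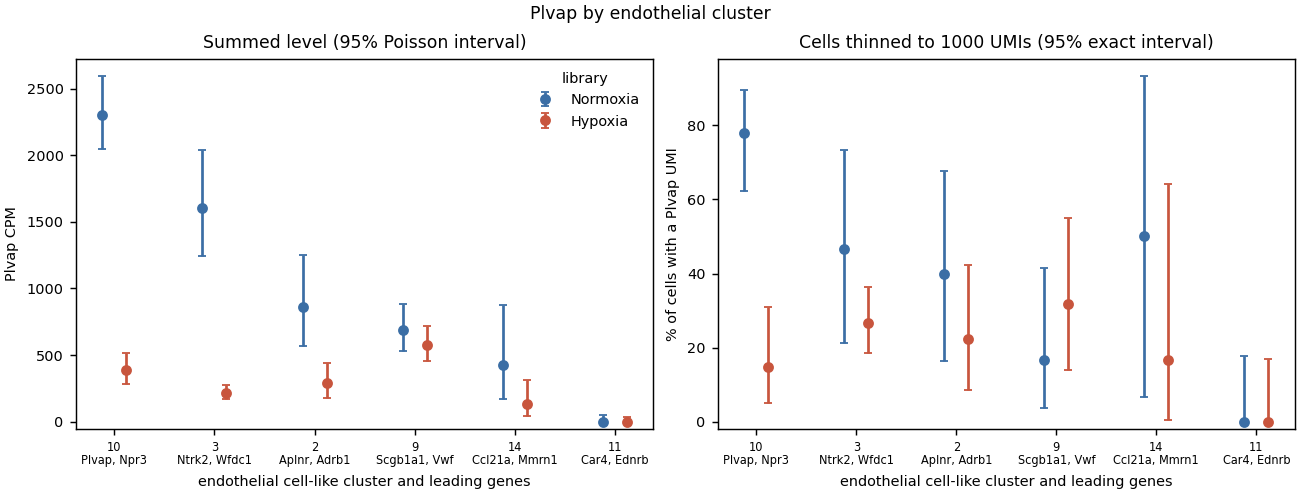
Plvap in the 6 endothelial cell-like clusters (horizontal axis, cluster number and leading genes) of the Normoxia (blue) and Hypoxia (red) libraries. The left panel gives the summed level in CPM with 95% Poisson intervals and the right panel the percentage of cells with a Plvap UMI after thinning to 1000 UMIs with 95% exact binomial intervals; clusters 10, 3 and 2 are higher in Normoxia on the left, and cluster 11 is at 0 in both libraries.

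Car4 status divided the capillary clusters differently in each library. In Normoxia the Car4-positive cells of these clusters had 2037 CPM of Plvap (1744 to 2366, 26 cells) and the others 1835 CPM (1590 to 2106, 49 cells), so that the log2 ratio of Car4-positive to other cells was 0.15 (−0.15 to 0.45). In Hypoxia they had 125 CPM (83.0 to 181, 54 cells) and 368 CPM (303 to 443, 115 cells), so that the log2 ratio of Car4-positive to other cells was −1.56 (−2.21 to −0.95). The intervals of these ratios did not overlap. The cells compared also differed in cluster. Cluster 10 gave 21 of the 26 Car4-positive and 21 of the 49 other cells in Normoxia, and 18 of 54 and 16 of 115 in Hypoxia. In Normoxia Scgb1a1 took 0.00829% of the UMIs of the Car4-positive and 1.63% of those of the other cells. The part of the cluster mix and of the airway transcripts in the ratios was not tested. For the other 6 genes the same comparison within the capillary clusters gave log2 ratios between −0.75 and 0.39, and only that of Cav1 in Hypoxia, 0.20 (0.03 to 0.37), had an interval that left out 0.

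The caveolins diverged between the libraries. Cav1 was higher in Hypoxia in Car4-positive cells, with 1532 CPM (1339 to 1746) in Normoxia and 2039 CPM (1887 to 2201) in Hypoxia, which gave a Hypoxia to Normoxia difference (log2) of 0.41 (0.19 to 0.64). In other endothelial cells it was at 1212 CPM (1069 to 1369) and 1671 CPM (1554 to 1793), or on the log2 scale a Hypoxia to Normoxia ratio of 0.46 (0.26 to 0.67). Its partner Cav2 was lower in Car4-positive cells, at 1777 CPM (1568 to 2007) in Normoxia and 1179 CPM (1064 to 1303) in Hypoxia, hence a ratio (log2, Hypoxia to Normoxia) of −0.59 (−0.82 to −0.36). In other endothelial cells Cav2 was at 866 CPM (745 to 999.8) and 886 CPM (801 to 976), which gave a Hypoxia to Normoxia difference (log2) of 0.03 (−0.22 to 0.29), an interval that includes 0. The sign of this value was not stable, and 10 of 19 alternatives kept it. It was −0.31 (−0.57 to −0.05) with up to 10% mitochondrial UMIs, −0.33 (−0.60 to −0.06) without cluster 9, and 0.32 (0.04 to 0.60) with Car4-positive cells taken by cluster. In that setting all cells of clusters 10 and 11 counted as Car4-positive, and the other endothelial cells were those outside these clusters.

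By cluster, Cav2 was lower in Hypoxia in the capillary clusters and in the Car4 and Ednrb cluster. Cluster 2 gave a log2 ratio of −0.61 (−1.18 to −0.04), cluster 3 of −0.45 (−0.83 to −0.05), cluster 10 of −0.58 (−0.92 to −0.25) and cluster 11 of −0.40 (−0.76 to −0.04). In cluster 9 the ratio was 1.01 (0.28 to 1.79), where the 12 endothelial markers differed by 1.32 (1.15 to 1.49) in the same direction. For Cav1, cluster 2 gave −0.33 (−0.78 to 0.12), cluster 3 gave 0.47 (0.11 to 0.85), cluster 10 gave 0.26 (−0.00 to 0.53), cluster 11 gave 0.07 (−0.41 to 0.56) and cluster 9 gave 0.86 (0.42 to 1.31). Over the capillary clusters together Cav1 stood at 0.26 (0.08 to 0.44) and Cav2 at −0.49 (−0.69 to −0.28). A few cells weighed on Cav1: in cluster 10 of the Hypoxia library 51 of its 255 UMIs were in 1 cell, and after thinning 87.3% (77.3 to 94.0%) of Normoxia and 77.2% (69.9 to 83.4%) of Hypoxia capillary cells had a Cav1 UMI, which goes against the order of the levels.

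Cavin1 in other endothelial cells was at 407 CPM (326 to 502) in Normoxia and 619 CPM (549 to 695) in Hypoxia, or on the log2 scale a Hypoxia to Normoxia ratio of 0.60 (0.25 to 0.97). In Car4-positive cells it was at 504 CPM (396 to 633) and 620.4 CPM (538 to 712), hence a ratio (log2, Hypoxia to Normoxia) of 0.30 (−0.09 to 0.70). Its ratio was positive in clusters 2, 3, 9, 10 and 11, between 0.25 and 0.73, and −0.44 in cluster 14. Only in cluster 9, at 0.65 (0.07 to 1.25), did its interval leave out 0. The 12 endothelial markers of cluster 9 differed by 1.32 in the same direction, and their part in this ratio was not tested. Over the capillary clusters together the Cavin1 ratio was 0.44 (0.11 to 0.78).

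Cavin2 was lower in Hypoxia in Car4-positive cells, with 2179 CPM (1947 to 2431) in Normoxia and 1551 CPM (1419 to 1692) in Hypoxia, which gave a Hypoxia to Normoxia difference (log2) of −0.49 (−0.70 to −0.28). Other endothelial cells had 1418 CPM (1263 to 1587) and 1314 CPM (1211 to 1424), or on the log2 scale a Hypoxia to Normoxia ratio of −0.11 (−0.31 to 0.09). In cluster 10 the levels were 2364 and 1297 CPM, a ratio of −0.87 (−1.16 to −0.58); 92.7% (80.1 to 98.5%) of its Normoxia and 55.9% (37.9 to 72.8%) of its Hypoxia cells had a Cavin2 UMI after thinning. Cluster 2 gave a ratio of −0.13 (−0.65 to 0.41), cluster 3 of −0.34 (−0.68 to 0.01), cluster 11 of −0.07 (−0.42 to 0.29) and cluster 9 of 0.42 (−0.03 to 0.89), so that only cluster 10 among these had an interval below 0. Over the capillary clusters Cavin2 stood at −0.53 (−0.70 to −0.35), and cluster 10 held 287 of their 417 Normoxia UMIs.

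The endothelial markers as a whole were also lower in the Hypoxia capillary clusters, in the same direction as Cav2, Cavin2 and Plvap. All 12 were detected in each library, and their summed level differed by −0.41 (−0.46 to −0.35) on the log2 scale over the capillary clusters and by −0.35 (−0.41 to −0.29) in the Car4-positive cells. In cluster 11 the sum differed by −0.06 (−0.15 to 0.04) and in other endothelial cells by 0.07 (0.01 to 0.14). Scaled to these markers, the ratio in Car4-positive cells was −0.24 for Cav2, −0.14 for Cavin2 and −3.42 for Plvap, and 0.76 for Cav1 and 0.65 for Cavin1. The part of the marker level in the differences was not tested.

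Cavin3 and Ehd2 had few endothelial UMIs, and no difference between the libraries was detectable at this depth. Cavin3 gave log2 ratios of 0.11 (−0.62 to 0.88) in Car4-positive and −0.38 (−0.88 to 0.14) in other endothelial cells. Ehd2 was at 245 CPM (172 to 339) and 239.6 CPM (189 to 299) in Car4-positive cells, a ratio of −0.03 (−0.62 to 0.58), and at 178 CPM (126 to 244) and 245 CPM (202 to 295) in other endothelial cells, a ratio of 0.46 (−0.08 to 1.03). Cavin3 nevertheless distinguished endothelial clusters in both libraries. In the lymphatic cluster it was at 908 CPM (508 to 1497) and 802 CPM (541 to 1144), though from 4 and 6 cells, and in cluster 11 at 286 CPM (167 to 458) and 291 CPM (186 to 433), against 82.2 CPM (47.0 to 134) and 108 CPM (81.7 to 140) in the capillary clusters. Cluster 11 exceeded the capillary clusters by 1.80 (0.73 to 2.88) in Normoxia and 1.43 (0.68 to 2.14) in Hypoxia on the log2 scale. Cluster 9, which also carried epithelial transcripts, had 322 CPM (29 UMIs) and 245 CPM (33 UMIs) of Cavin3. A level above that of the capillary clusters was thus not particular to cluster 11.

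**Figure D3:**
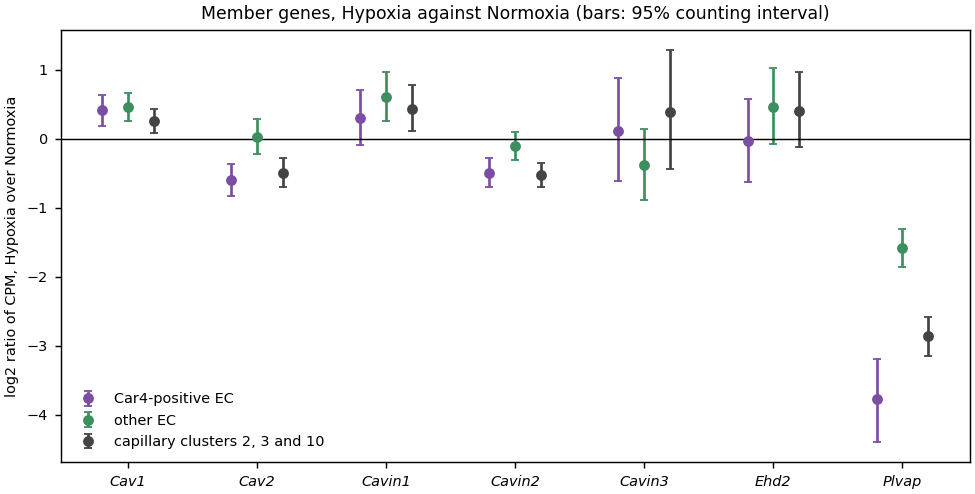
Log2 ratio of CPM, Hypoxia over Normoxia (vertical axis), for each of the 7 genes (horizontal axis) in Car4-positive endothelial cells (purple), other endothelial cells (green) and the capillary clusters 2, 3 and 10 (dark grey), which overlap the first 2 groups of cells. Bars are 95% intervals of counting error; Plvap lies between −3.77 and −1.58, Cav1 and Cavin1 lie above 0 and Cav2 and Cavin2 below 0 in the capillary clusters.

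The number of members past 1.5-fold was set beside the share of all genes with at least 20 UMIs that passed it. In Car4-positive cells 0 of the 7 were higher by over 1.5-fold, where 16.7% of 4064 genes were, and 2 were lower (Plvap, and Cav2 only just), where 15.6% were. In other endothelial cells 1 was higher (Cavin1), against 18.7% of 5115 genes, and 1 was lower (Plvap), against 13.8%. The median log2 ratio of the 7 was −0.03 in Car4-positive and 0.03 in other endothelial cells, beside −0.0040 and 0.05 over all genes. The ratios of the 7 lay on both sides of 0 in each group of cells.

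Car4-positive cells were compared with other endothelial cells within each library. In Normoxia Cav2 was higher by 1.04 (0.76 to 1.32), Cavin2 by 0.62 (0.39 to 0.85) and Cav1 by 0.34 (0.07 to 0.60) on the log2 scale in the Car4-positive cells. Cavin3 stood at −0.69 (−1.46 to 0.04), Cavin1 at 0.31 (−0.16 to 0.77), Ehd2 at 0.46 (−0.24 to 1.16) and Plvap at −0.11 (−0.40 to 0.17). Past 1.5-fold were 2 members higher, where 24.6% of 3253 genes were, and 1 lower, where 15.1% were. In Hypoxia the ratio was 0.41 (0.21 to 0.62) for Cav2, 0.24 (0.07 to 0.41) for Cavin2, 0.29 (0.14 to 0.44) for Cav1 and −2.30 (−2.93 to −1.73) for Plvap. There 0 members were higher by over 1.5-fold, against 16.5% of 5632 genes, and 1 was lower, against 10.6%. The 12 endothelial markers also summed higher in the Car4-positive cells, to 23051 against 12414 CPM in Normoxia and 18084 against 13050 CPM in Hypoxia. Scgb1a1 took 3.21% of the UMIs of the other endothelial cells in Normoxia and 3.2% in Hypoxia, against 0.00953% and 0.0169% of those of the Car4-positive cells. Scaled to the markers, Cav1 turned to −0.55 in Normoxia and −0.18 in Hypoxia, and Cavin2 to −0.27 and −0.23. The part of the marker level and of the airway transcripts in these ratios was not tested.

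The 2 groups of cells differed in their clusters: no other endothelial cell belonged to cluster 11 and no Car4-positive cell to cluster 14. The Car4 and Ednrb cluster itself, set against the capillary clusters, had more Cav2, by 0.49 (0.17 to 0.79) in Normoxia and 0.58 (0.30 to 0.85) in Hypoxia. It had less Cav1, with log2 ratios of −0.76 (−1.17 to −0.37) and −0.95 (−1.27 to −0.64). Cluster 11 held 2138 CPM of Cav2 (1782 to 2544) and 1060.5 CPM of Cav1 (815 to 1357) in Normoxia, and 1624 CPM (1360.4 to 1923) and 1115 CPM (899 to 1367) in Hypoxia. The capillary clusters held 1527 CPM of Cav2 and 1799 CPM of Cav1 in Normoxia, and 1088 and 2153 CPM in Hypoxia. The direction for Cav1 was thus opposite when Car4-positive cells were defined by their UMI and when they were defined as this cluster.

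The number of the 7 genes with a UMI was counted per cell, a number that follows how often each gene is detected. After thinning to 1000 UMIs, 51 of 71 Normoxia cells of the capillary clusters (71.8%, 59.9 to 81.9%) and 55 of 162 Hypoxia cells (34.0%, 26.7 to 41.8%) had UMIs of at least 4 of the 7 genes. Plvap is among the 7. Over the other 6 genes, a count added after seeing the data, the shares were 35.2% (24.2 to 47.5%) and 25.3% (18.8 to 32.7%), whose intervals overlap. In cluster 11, which had no Plvap UMI, the shares were 47.4% (24.4 to 71.1%) and 40.0% (19.1 to 63.9%). Fibroblasts reached 4 genes in 1 of 38 and 1 of 16 cells, and lymphocytes in none of 44 and 129. The median number of genes per cell was 4 in Normoxia and 3 in Hypoxia capillary cells.

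**Figure D4:**
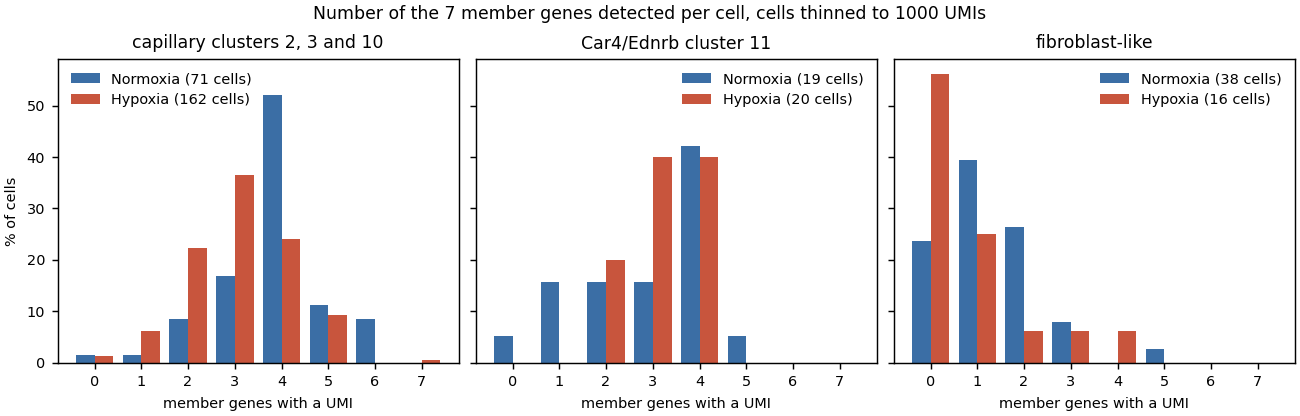
Percentage of cells (vertical axis) by the number of the 7 genes with a UMI (horizontal axis) in the capillary clusters, the Car4 and Ednrb cluster and fibroblast-like cells, each cell thinned to 1000 UMIs. Blue bars are Normoxia and red bars Hypoxia; the capillary cells peak at 4 genes in Normoxia and at 3 in Hypoxia, and 9 of 38 Normoxia and 9 of 16 Hypoxia fibroblasts have none.

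Likeness in pattern was described by Pearson's r of log2(CPM + 10) over 15 units of class and library, among 3854 genes. The units share libraries and depth. The genes most like Cav1 were Tmem100 (r of 0.99), Sod1 (0.97), Scn7a, Stx12 and its fellow member Cavin2 (each 0.95). The genes most like Plvap were Efna1, a ligand of Eph receptors (0.98), Sox11 (0.95), Hey1, a Notch target (0.94), Bmp6 and Edn1, the endothelin-1 gene (each 0.93). Between members r was highest for Cav1 with Cavin2 (0.95) and for Cavin1 with Cavin3 (0.91), and lowest for Cav2 with Cavin3 (0.47).

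Other genes of caveolar and clathrin membrane traffic were read from lists. Of the 11 other assembly and neck genes 4 had 20 UMIs in other endothelial cells: Dnm2, a dynamin that severs membrane necks, had 9 UMIs in Normoxia and 59 in Hypoxia, hence a ratio (log2, Hypoxia to Normoxia) of 1.62 (0.59 to 2.81). Pacsin2, a membrane-bending protein of caveolae, had 6 and 42 UMIs, a ratio of 1.71 (0.47 to 3.24). In Car4-positive cells these ratios were 0.34 (−0.51 to 1.27) and 0.15 (−0.91 to 1.31), whose intervals include 0. Ehd4, a relative of Ehd2, stood at −0.16 (−0.40 to 0.08) in other endothelial cells and at −0.66 (−0.88 to −0.43) in Car4-positive cells. Of these 4 genes 2 were higher and 0 lower by over 1.5-fold in other endothelial cells, and 0 higher and 1 lower in Car4-positive cells. The background was 18.7% higher and 13.8% lower in other endothelial cells and 16.7% and 15.6% in Car4-positive cells, and it applies to the lists that follow as well. The muscle forms Cav3 and Cavin4 had at most 3 UMIs over both libraries in either group of cells.

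Among proteins known from endothelial caveolae, 8 of 9 genes could be read in other endothelial cells, with 2 higher and 1 lower by over 1.5-fold, and 6 in Car4-positive cells, with 0 in either direction. Cd36, the fatty acid receptor, was lower in both, by log2 ratios of −0.56 (−0.80 to −0.32) and −0.53 (−0.74 to −0.32). The ratio of Slc9a3r2, a scaffold protein, was 0.68 (0.41 to 0.96) and 0.28 (0.03 to 0.53), and that of the water channel Aqp1 0.32 (0.15 to 0.49) and −0.10 (−0.29 to 0.09). Nos3, whose enzyme is held in caveolae by caveolin-1, had 7 and 28 UMIs in other endothelial cells, a ratio of 0.90 (−0.33 to 2.34). In Normoxia 4 of 6 such genes were higher by over 1.5-fold in Car4-positive than in other endothelial cells, where 24.6% of all genes were, and in Hypoxia 2 of 7, where 16.5% were. The Normoxia genes were led by the VEGF receptor Kdr with 2.22 (1.69 to 2.79). Kdr belongs to the 12 endothelial markers used here. These markers summed to 23051 CPM in Car4-positive and 12414 CPM in other endothelial cells in Normoxia, and to 18084 and 13050 CPM in Hypoxia. Scgb1a1 took 0.00953% and 3.21% of the UMIs of the 2 groups in Normoxia. The part of the marker level and of the airway transcripts in these counts was not tested.

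The clathrin coat, the other main route of uptake, gave 2 of 12 genes higher and 1 lower in other endothelial cells and 1 of 11 higher and 1 lower in Car4-positive cells. The median log2 ratios were −0.16 and −0.03, beside 0.05 and −0.0040 over all genes. Cltc, the clathrin heavy chain, was at 14 and 64 UMIs in Car4-positive cells, a ratio of 1.04 (0.19 to 1.99). For the flotillins, membrane proteins of separate domains, 0 of 2 passed 1.5-fold in other endothelial cells and 0 of 1 in Car4-positive cells.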

How the data were processed

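The values are UMI counts as the authors deposited them, unnormalized, one matrix per library. Cell Ranger 3.1.0 is named in the header of each matrix and mm10 in the labels; strandedness of counting is not given in the sources used here. Following the methods of the study, the retained barcodes had 200 to 6000 genes and no more than 5% of UMIs from mitochondrial genes. In Normoxia 51 barcodes and in Hypoxia 146 exceeded the mitochondrial maximum, and 29 and 19 had too few genes. Cells were clustered in scanpy 1.11.5 (10000 UMIs per cell, 2000 variable genes without the 7 genes, 15 components, 15 neighbours, Leiden resolution 1.0). A cluster took the class with most markers detected in 25% of its cells at 2 times the median CPM over clusters, needing at least 3, no tie, and 1 among its 10 leading genes. The naming rule was written with the clusters already known, and names are "like" names. Doublets were not removed from the results given; Scrublet marked 3 cells.

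UMIs were summed per library and class. Sums have exact Poisson intervals, ratios exact conditional binomial intervals and shares exact Clopper-Pearson intervals, at 95% confidence and for counting error only; 0 counts were taken to allow 3. Cells are not replicates. Genes entered counts past 1.5-fold with 20 UMIs over both arms. Ratios and thinning were tried on simulated Poisson counts. These lack the spread between cells that the data have, so they cannot show how well the intervals hold for the real cells. The genes, lists and markers were chosen with earlier results of these data known. The named genes are the 7, the context lists, and the 5 genes most like Cav1 and Plvap (with 100 UMIs, units of 10 cells). Gene positions come from GENCODE M21 by gene identifier. The alternatives tried were other filters, doublet removal, resolutions, definitions of endothelial and Car4-positive cells, totals, scaling and weighting, listed with their effect in the closing section.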

Additional observations from a re-analysis of the deposited data

Results flagged for a closer look

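The Hypoxia to Normoxia ratio of Cav2 pointed in opposite directions in different endothelial clusters, with intervals on either side of 0, and the difference between clusters was not tested. The capillary clusters 2, 3 and 10 gave −0.61, −0.45 and −0.58 (log2) and cluster 11 gave −0.40, against 1.01 in cluster 9 and 2.91 (0.23 to 8.29) in the lymphatic cluster 14. The last value rests on 1 UMI in 4 Normoxia cells and 17 UMIs in 6 Hypoxia cells, 9 of them in 1 cell. In cluster 9 the 12 endothelial markers differed by 1.32 (1.15 to 1.49) in the same direction as Cav2. Their part in the Cav2 ratio was not tested.

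In the barcodes that the filters left out, 80 in Normoxia and 160 in Hypoxia, Cav1 and Cavin1 were above their Normoxia level in Hypoxia, as they were in endothelial cells. With haemoglobin left out of the total, Cav1 was at 359 CPM (249 to 502) in Normoxia and 585 CPM (506 to 673) in Hypoxia, and Cavin1 at 232 CPM (146 to 352) and 440.3 CPM (372 to 518). Plvap in these barcodes was at 327 CPM (222 to 465) and 84.4 CPM (56.1 to 122). Cav2 and Cavin2, which were lower in Hypoxia in Car4-positive cells, were not lower here. Cav2 was at 180 CPM (105 to 287) and 283 CPM (229 to 347), and Cavin2 at 327 CPM (222 to 465) and 386 CPM (322 to 459). Cavin3 was at 190 CPM (113 to 300) and 99.5 CPM (68.5 to 140), and Ehd2 at 73.9 CPM (29.7 to 152) and 109 CPM (76.0 to 150). The intervals of the 2 libraries overlap for Cav2, Cavin2, Cavin3 and Ehd2. They do not overlap for Cav1, Cavin1 and Plvap. The barcodes are a mixture of cell types that was not resolved.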

How the results depend on the processing

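No paired analysis was possible because there was 1 library per group, and no library could be left out. Plvap was lower in Hypoxia under every alternative that gave a ratio, from −2.27 to −1.40 (log2) in other and from −4.54 to −2.77 in Car4-positive endothelial cells. With Car4-positive cells taken as the Ednrb cluster there were 0 Plvap UMIs in both libraries, and no ratio could be given. The Hypoxia to Normoxia values of Plvap in other endothelial cells that moved past the counting interval were −1.94 with up to 10% mitochondrial UMIs, −1.89 with endothelial cells taken by the study's markers, −2.21 with Car4-positive cells taken as the Ednrb cluster and −2.27 without the Scgb1a1 cluster. Those in Car4-positive cells were −4.54 from 2 Car4 UMIs, −2.77 by cluster and −3.03 with equal weight per cell. By cluster, here and below, means that all cells of clusters 10 and 11 counted as Car4-positive. This set took in 21 Normoxia and 16 Hypoxia cells of the Plvap-led cluster 10 that had no Car4 UMI. For Cav1 they were 0.71 by cluster and 0.24 both with thinned cells and without the Scgb1a1 cluster in other endothelial cells, and 0.15 by cluster, 0.072 as the Ednrb cluster, 0.76 scaled to the endothelial markers and 0.11 as a mean over clusters in Car4-positive cells. The cause was not tested.

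Car4-positive against other cells was the less stable comparison. For Plvap in Normoxia it gave −0.66 with the mitochondrial limit, 0.77 by cluster, −0.65 by the study's markers, −0.46 without the Scgb1a1 cluster, 0.63 without the Ednrb cluster and −1.01 with marker scaling. In Hypoxia it gave −3.29 from 2 UMIs, −0.41 by cluster, −3.13 thinned and −1.62 with equal weight. Cav1 changed sign in Normoxia to −0.018 with the mitochondrial limit, −0.40 as the Ednrb cluster, −0.075 without the Scgb1a1 cluster and −0.55 with marker scaling, and in Hypoxia to −0.12 by cluster, −0.77 as the Ednrb cluster and −0.18 with marker scaling. Cav2 changed sign to −0.092 in Normoxia and −0.038 in Hypoxia as a mean over clusters and to −0.057 in Hypoxia with marker scaling. Cavin2 changed sign to −0.024 and −0.13 as a mean over clusters and to −0.27 and −0.23 with marker scaling. Scaling by the median ratio shifted the median gene by 0.11 in the Normoxia comparison and by less in the others.

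The settings on the Ednrb cluster, the Scgb1a1 cluster, shared barcodes, marker scaling and means over clusters were chosen after seeing the data. Depth limited Cavin3, Ehd2 and cluster 14, where sums of few UMIs gave wide intervals. With at least 50 UMIs, 3 assembly and neck genes remained in other endothelial cells, with 1 higher by over 1.5-fold and a median of 0.02.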
